A study of Rattus norvegicus with 241 samples.

Results

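Lymphatic endothelial cells were sought in unsorted single-cell tables of the whole mammary gland from 9 virgin SD rats. A cell was taken as lymphatic when it held at least 2 UMIs (unique molecular identifiers, each a captured RNA molecule) summed over PROX1, LYVE1 and FLT4, at least 1 of them from PROX1, together with at least 1 UMI summed over PECAM1, CDH5 and EGFL7 and 0 UMIs of PTPRC, the pan-leukocyte gene CD45. PECAM1 had no row in the tables, so the endothelial condition rested on CDH5 and EGFL7. The cells were thus chosen by their own measured UMIs of these genes, whose values are given as description only. This gave 456 lymphatic cells among 103524 cells in all. The rats were 24 days old at the first dose and received vehicle (3 rats, numbered 1, 2 and 4) or 75 mg/kg of the TGFβ receptor kinase inhibitor galunisertib (TGFBRi, 6 rats, numbered 1, 2, 4, 6, 11 and 14) by gavage, 2 doses a day over 10 days, and their glands were taken on day 0, when dosing ended. Each rat gave 1 library, and no animals were pooled. The inhibitor was given to the whole animal, so an effect on lymphatic cells themselves and one that reached them from other tissues cannot be told apart.

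Lymphatic endothelium lines the blind-ended capillaries and valved collecting vessels that drain fluid, lipid and leukocytes from tissue. The transcription factor PROX1 sets its identity, FLT4 is its receptor for the growth factors VEGFC and VEGFD, and LYVE1 binds hyaluronan. Capillary cells secrete CCL21, the chemokine that draws dendritic cells into lymph through CCR7, whereas collecting vessels and valves carry FOXC2, GATA2 and ITGA9. TGFβ signals through TGFBR2 and TGFBR1 to SMAD2 and SMAD3, and is known to restrain lymphatic growth in several tissues.

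The libraries held between 22 lymphatic cells (TGFBRi rat 2) and 92 (vehicle rat 1), with 195512 to 956509 UMIs summed per rat. The median lymphatic cell held 4837 to 9340 UMIs by rat, and 7526.5 over all cells, against 4955.5 in blood endothelial cells. A rule that asks for UMIs of low-level genes takes deeper cells more readily, and this was not corrected in the gene comparisons. Of the 456 cells, 89 met the threshold with exactly 2 UMIs of the 3 lymphatic genes, 41 had 3 and 326 had more. Just outside the rule lay 199 cells with a single PROX1 UMI as the only lymphatic UMI, 426 cells without PROX1, 87 without CDH5 or EGFL7, and 28 with a PTPRC UMI. Any pair of libraries shared 88 to 284 cell barcodes, at most 2.51% of the smaller library, and no lymphatic barcode was shared.

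Of the markers that the rule did not use, PDPN, MMRN1 and RELN were each present in most of the cells. Podoplanin (PDPN), the mucin-like surface protein of lymphatic endothelium, had a UMI in 69.7% of lymphatic cells, against 3.68% of 5868 blood endothelial cells and 1.90% of 15450 B cells. MMRN1, an extracellular matrix multimerin, was found in 63.4%, against 1.40% of blood endothelial and 0.0259% of B cells. RELN, the secreted glycoprotein reelin, was found in 60.7%, against 1.58% and 0.712%. CCL21 was found in 40.8%, against 3.20% and 1.20%. The B cells were shallower, with a median of 2609 UMIs. Epithelial cells of similar depth (median 7440.5 UMIs) held MMRN1 in 0.0348% and CCL21 in 0.995% of 23010 cells, whereas PDPN and RELN, which mammary epithelium also expresses, reached 30.3% and 19.1% there. In 97 of the 456 cells (21.3%) no UMI of PDPN, RELN or MMRN1 was found. Over all rats these cells had a median of 8365 UMIs against 7148 in the others, but they were shallower in 3 of the 9 rats (vehicle rat 2 and TGFBRi rats 1 and 4). By rat they made up 10.9%, 8.11% and 30.2% of lymphatic cells in vehicle and between 14.0% and 42.4% (rat 11) in TGFBRi, so part of the cells taken by the rule lacked the other lymphatic markers at this depth.

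The cells with MARCO, those with PTX3 and those with VWF differed in the other lymphatic genes they held. These splits were chosen after the values were seen and are given as description only. MARCO, a scavenger receptor known from macrophages and from the lymphatic endothelium of lymph node sinuses, was found in 49 cells, 0.0341% of blood endothelial cells and 0.0518% of B cells. Of the 49 cells, 93.9% also held STAB2, the hyaluronan scavenger receptor, against 8.35% of the remainder. MRC1, the mannose receptor, was held by 67.3% against 14.3%, and the chemokine gene CCL20 by 26.5% against 3.44%. In contrast, CCL21 was held by 4.08% of cells with MARCO and 45.2% of cells without it, and FOXC2 by 2.04% against 20.9%. PDPN and RELN were held by 91.8% and 89.8% of the cells with MARCO, against 67.1% and 57.2% of the remainder. MMRN1 went the other way, at 53.1% against 64.6%. These cells were shallower than the remainder, with a median of 6138 UMIs against 7782. They numbered 18, 1 and 0 in vehicle rats 1, 2 and 4, and 2, 4, 3, 4, 7 and 10 in the TGFBRi rats. Vehicle rat 1 alone thus held 18 of the 49.

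PTX3, a secreted pentraxin of the innate immune response, marked 136 other cells, with little overlap with those holding MARCO. CCL21 was held by 83.8% of cells with PTX3 and 22.5% of cells without. PDPN (97.1% against 58.1%), MMRN1 (94.1% against 50.3%) and RELN (89.7% against 48.4%) were also found more often. The cells with PTX3 were deeper, with a median of 8823 UMIs against 6552, and the part of depth in these shares was not tested. Only 1 cell held both PTX3 and MARCO. VWF, the adhesive protein of blood vessels that is also made by collecting lymphatics, was found in 120 cells, 26.3% of the 456, against 43.2% of blood endothelial and 0.201% of B cells. Cells with VWF held less often RELN (19.2% against 75.6%), PDPN (27.5% against 84.8%), MMRN1 (35.8% against 73.2%), TBX1 (22.5% against 72.3%) and CCL21 (6.67% against 52.98%). ACKR4, the decoy receptor that removes CCL21, was held by 54.2% against 21.7%, and the tight-junction gene CLDN11 by 41.7% against 28.3%. The VWF cells were deeper, with a median of 9631.5 UMIs against 6627.5. The part of depth in these shares was not tested. By rat, cells with VWF were 16.3%, 8.11% and 18.6% of lymphatic cells in vehicle and 24.6% to 52.5% in TGFBRi.

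**Figure D1:**
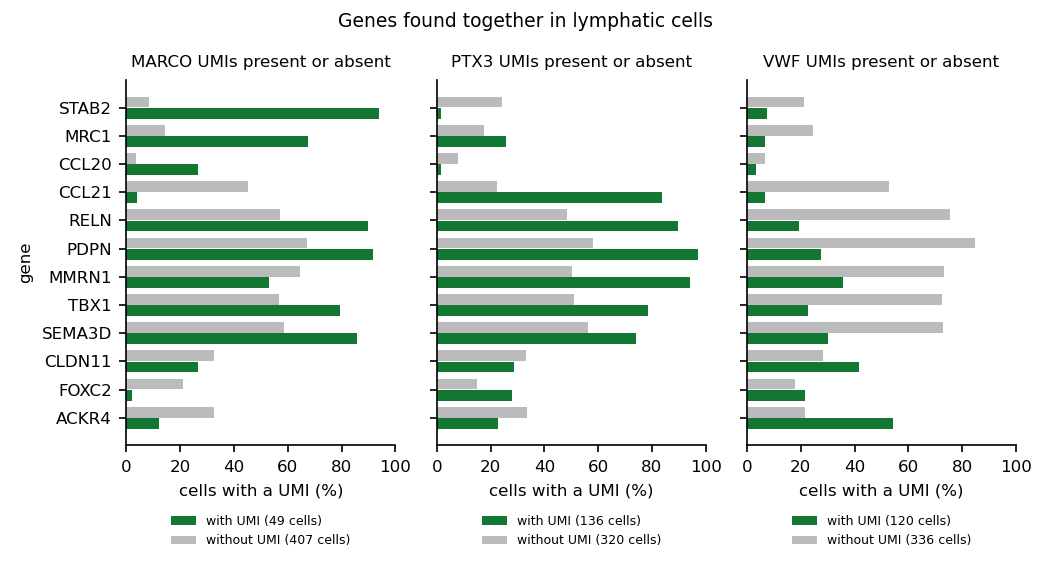
Share of lymphatic cells (x axis, percent) that held a UMI of each gene (y axis), among cells with (green) and without (grey) a UMI of MARCO (49 of 456 cells), PTX3 (136) or VWF (120), over all 9 rats. STAB2 reached 93.9% in cells with MARCO, CCL21 reached 83.8% in cells with PTX3, and cells with VWF had low shares of RELN, PDPN and MMRN1.

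The share of lymphatic cells was next compared between treatments, which asks whether the inhibitor altered their number relative to other cells. Among endothelial cells (lymphatic plus blood endothelial), lymphatic cells were 9.15%, 4.12% and 3.45% in vehicle rats 1, 2 and 4, a mean of 5.57% ± 3.11 (SD, n = 3). In TGFBRi rats 1, 2, 4, 6, 11 and 14 they were 13.01%, 9.95%, 8.09%, 6.77%, 12.996% and 8.03%, a mean of 9.81% ± 2.67 (SD, n = 6). Vehicle rat 1 lay within the TGFBRi range and the other 2 vehicle rats lay below it. The difference of 4.24 percentage points did not reach the 0.05 used for the shares in an exact two-sided permutation test (p = 0.0952, 84 assignments, smallest possible p = 0.0119). Counting error alone was wide, from 9.07% to 17.9% for TGFBRi rat 1 and from 2.50% to 4.61% for vehicle rat 4 (exact 95% binomial intervals). Of all cells, lymphatic cells were 0.560%, 0.293% and 0.365% in vehicle and 0.278% to 0.522% in TGFBRi. The groups overlapped, and the difference was 0.0347 points (exact permutation test, p = 0.679). Blood endothelial cells, the larger part of the first denominator, numbered 914, 861 and 1205 in vehicle and 199 to 757 in TGFBRi. These counts are not scaled to library size. The vehicle libraries held 16424, 12615 and 11789 cells and the TGFBRi libraries 7900 to 11997.

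**Figure D2:**
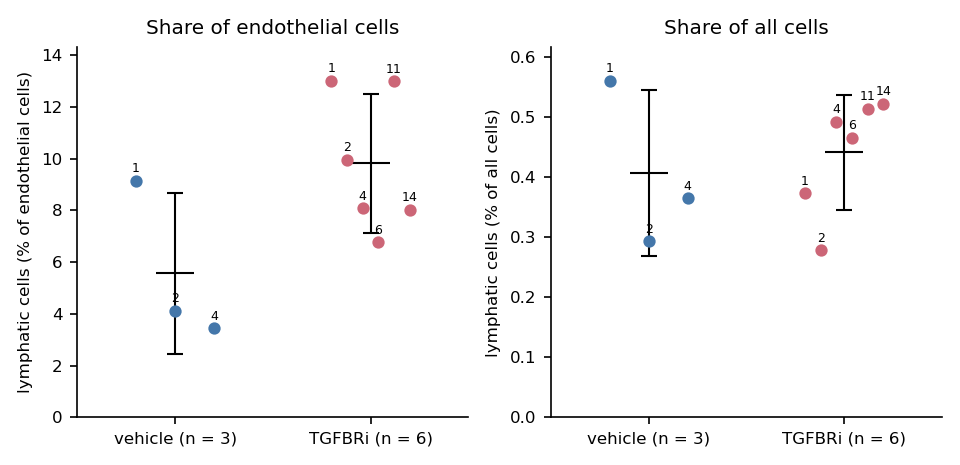
Lymphatic cells of each rat (points, 3 vehicle and 6 TGFBRi) as a percentage of endothelial cells and of all cells. Bars give the mean and SD of each group over its rats. The endothelial share was 3.45% to 9.15% in vehicle and 6.77% to 13.01% in TGFBRi, and the shares of all cells overlapped.

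To describe what set lymphatic cells apart within each rat, UMIs were summed per rat over lymphatic cells and over blood endothelial cells (at least 2 UMIs of CDH5 and EGFL7 and 0 of PROX1, LYVE1, FLT4 and PTPRC) and compared within rats by edgeR, with levels in CPM (UMI counts relative to the scaled library total). Genes of the rule were left out. Of 14088 genes tested, 4247 (30.1%) passed an adjusted p of 0.1, 1523 (10.8%) higher and 2724 (19.3%) lower in lymphatic cells, with a median log2 difference of −0.15 over all genes. With DESeq2 scaling factors in edgeR the median was −0.07 and the split 1809 higher and 2287 lower, and in the DESeq2 test the median was −0.0034 and the split 1651 and 1967. In simulated data of this design 200 genes were changed by 1 on the log2 scale. There edgeR recovered 58% of them and made 64 false calls, a larger share of its calls than the threshold of 0.1 sets. Of 20 lymphatic genes outside the rule, 16 were higher, 1 was lower (SOX18, log2 difference −0.78) and SNCG, ADGRG3 and TIE1 did not pass, with a list median of 2.99. The 21 blood endothelial genes had a median of −2.03, with 17 lower and 1 higher, the tight-junction gene CLDN5 (1.09). Since the cells were chosen for 1 of the 2 identities, these list counts describe the choice of cells more than they test it.

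CCL21 was the most abundant lymphatic gene named. Its level in lymphatic cells was 4044 CPM in the lowest rat, 25190 in the median rat and 31107 in the highest, against 28.3, 484 and 752 CPM in blood endothelial cells, a log2 difference of 5.75 ± 0.55 (SE, adjusted p = 0.000558, higher in 9 of 9 rats). The lowest CCL21 levels were in TGFBRi rat 11 and vehicle rat 1. MMRN1 was at 339 to 1054 CPM (median 585) against 0 to 14.1 CPM (median 3.07), a difference of 7.13 ± 0.49. RELN (5.30), the transcription factor TBX1 (5.73), the semaphorins SEMA3D (6.28) and SEMA3A (5.84), and CLDN11 (5.13) were each higher in all 9 rats, as were PTX3 (5.27), the neuronal-type membrane genes NSG2 (5.35) and GPM6A (4.88), the amino acid transporter SLC38A4 (5.79), and DUOXA2 (6.20), which matures a hydrogen peroxide-generating oxidase. DUOXA2 stood at 39.7 to 79.7 CPM in lymphatic cells and 0 to 2.10 CPM in blood endothelium, so the 2 cell types did not overlap in any rat.

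3 of the 15 leading genes were carried by some rats only. MARCO had 3243 UMIs in lymphatic cells and 2 in blood endothelial cells, a ratio of 14180 at equal depth (exact 95% counting interval 3922 to 117139). Its level was 1290, 113 and 0 CPM in vehicle rats 1, 2 and 4 and 294 to 1011 CPM in TGFBRi. STAB2 (8.27) was likewise at 0 in vehicle rat 4 and at most 226 CPM, in vehicle rat 1. NTS, the peptide neurotensin, was higher in 6 of 9 rats, with 316 CPM in vehicle rat 4 and a median of 7.82 CPM.

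**Figure D3:**
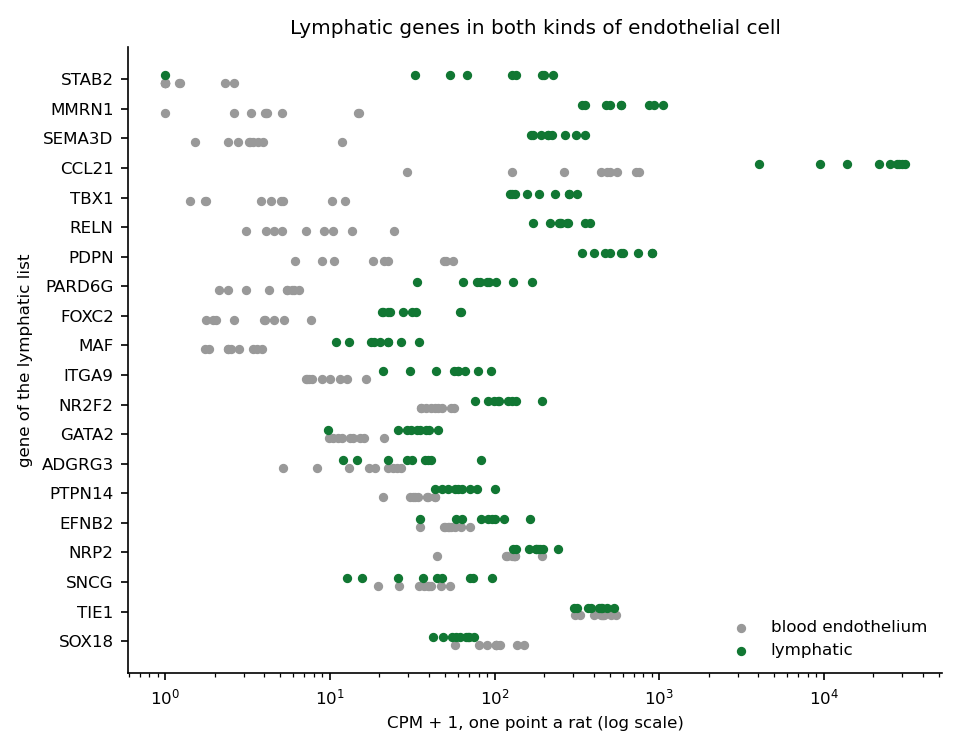
Levels (CPM + 1, log axis, 1 point a rat, 9 rats) of the 20 lymphatic genes outside the rule (y axis) in lymphatic cells (green) and blood endothelial cells (grey). MMRN1 lay between 339 and 1054 CPM in lymphatic cells and at or below 14.1 CPM in blood endothelium, STAB2 was at 0 in lymphatic cells of vehicle rat 4, and SOX18 was lower in lymphatic cells.

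Among the 15 genes with the largest difference downwards were genes of capillaries and products of other cells. GPIHBP1, which carries lipoprotein lipase across capillary endothelium, was at 0 to 123 CPM (median 10.1) against 413 to 1690 CPM (median 1245), a log2 difference of −5.62 ± 0.90. C1QTNF9 (−6.42), the water and glycerol channel AQP7 (−5.14) and the capillary glycoprotein CD300LG (−5.44) were lower in all 9 rats. KCNQ1 had 0 UMIs against 213, at least 8.12-fold lower against a floor of 3 UMIs over the group, and CAR3 0 against 206, at least 7.85-fold lower. AABR07007146.1, a gene with no other name in the tables, had 0 against 382 UMIs, at least 14.6-fold lower. The haemoglobin genes HBA-A1, HBA-A2 and HBB, the milk gene CSN2 (−3.51) and the fat-associated gene APOD (3 UMIs against 3177) were also lower. These are products of other cells, and 8 of 11 fibroblast markers and 8 of 10 mural markers were lower as well, where 19.3% of all genes were. The part of such RNA in the blood endothelial sums was not tested. GLYCAM1 (−6.54), the mucin of high endothelial venules and of milk, had 6247 UMIs in lymphatic cells, of which 6058 were in 1 cell of vehicle rat 4 and made up 39.9% of that cell. The other 8 rats lay between 0 and 171 CPM, against a median of 4538 CPM in blood endothelium.

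The pathway lists are read against the 10.8% of all genes that were higher and the 19.3% that were lower. Within the list of 22 tested VEGFC pathway genes, 7 were higher and 6 lower. NRP2, the co-receptor of FLT4, was 0.56 higher, whereas FLT1 (−2.69), NRP1 (−2.29) and the angiopoietin receptor TEK (−1.47) were lower. The adrenomedullin receptor parts CALCRL (0.41) and RAMP3 (2.34), the receptor EPHB4 (1.38) and its ligand EFNB2 (0.67), and VEGFA (1.04) and VEGFB (1.44) were higher. KDR was −0.27 (adjusted p = 0.0973) and did not pass in DESeq2 (adjusted p = 0.404). Of 16 valve and collecting vessel genes, 10 were higher and 3 lower. FOXC2 (3.47), ITGA9 (2.59), NFATC1 (1.85) and CELSR1 (3.47) were among those higher, and the connexin GJA1 (−0.70) was lower. Of 12 genes known from lymph node lymphatic endothelium, 6 were higher (MARCO, PTX3, ACKR4 2.30, MRC1 4.34, ITGA2B 1.504 and the lymphocyte survival factor IL7 3.97) and 2 lower (the addressin MADCAM1 −2.32 and CD274 −0.64).

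In the next lists too, the shares over all genes were 10.8% higher and 19.3% lower. Among 35 leukocyte traffic genes, 11 were higher and 14 lower. ICAM1, the integrin ligand, was at 1751 CPM in the median rat against 734 CPM (1.26 ± 0.09), and the chemokine scavenger ACKR2 was 4.95 higher. The retention chemokine CXCL12 (−4.13), E-selectin (SELE, −2.03) and P-selectin (SELP, −1.02) were lower. Of 26 interferon response genes, 19 were lower, among them IFIT3 (−1.36), ISG15 (−1.42) and the MHC class I light chain B2M (−0.79), and GBP5 (1.57) was higher. Of 36 basement membrane and matrix genes, 18 were lower and 6 higher. COL4A1 was −2.25, COL15A1 −3.12 and COL4A2 −2.09, whereas EMILIN1, the elastic fibre protein that anchors lymphatic capillaries, was 2.32 higher.

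Of 24 TGFβ and BMP receptors, ligands and SMADs, 8 were higher and 4 lower in lymphatic cells, where 10.8% and 19.3% of all genes were. All 3 ligands were higher, TGFB1 at a median of 301 CPM against 179 (0.73 ± 0.11, higher in 9 of 9 rats), TGFB2 (0.90) and TGFB3 (1.22), with the mediators SMAD2 (0.62) and SMAD3 (0.92) and the latency proteins LTBP3 (0.94) and LTBP4 (1.20). The endothelial BMP9 receptor ACVRL1 (−0.87) and its co-receptor ENG (−0.98) were lower in all 9 rats, as were ACVR2A (−0.73) and LTBP1 (−0.53). Of 17 targets of BMP and ACVRL1, 7 were lower, including ID1 (−1.47), ID3 (−1.05) and SMAD7 (−1.34), and BMP2 (0.88) was higher. TGFβ targets split evenly, 9 higher and 9 lower of 28. TGFBI, a secreted matrix protein, was at a median of 289 CPM against 52.02 (2.44 ± 0.19), whereas the inhibitory SMADs SMAD7 and SMAD6 (−2.31) were lower.

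Within lymphatic cells, TGFBRi was then compared with vehicle over the 9 rats. Of 10636 genes with at least 10 UMIs, 663 (6.23%) passed the adjusted p of 0.1, 322 (3.03%) higher and 341 (3.21%) lower in TGFBRi. Only 66 of the higher and 94 of the lower calls passed in every fit that left out 1 rat, and without vehicle rat 2 the number of calls was 251. Restricted to cells with a UMI of PDPN, RELN or MMRN1, 612 genes passed, among them 186 of the 322 and 287 of the 341. The same contrast in blood endothelium, with more cells, called 4409 of 13866 genes (31.8%).

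HMOX1, SQSTM1 and NQO1 were among the genes that fell. HMOX1, which breaks down haem, was at 3756, 3369 and 2485 CPM in vehicle rats 1, 2 and 4 and at 432 (lowest), 600.3 (median) and 669 (highest) CPM in TGFBRi. The groups were far apart, with a log2 difference of −2.46 ± 0.18 (adjusted p = 2.98e-09). SQSTM1, the autophagy receptor p62, was at 3914, 6574 and 6326 CPM against 1180, 1480 and 1682 CPM (−1.95 ± 0.21, adjusted p = 2.56e-07). NQO1, a quinone reductase, was at 251, 531 and 310 CPM against 43.2, 70.03 and 87.6 CPM (−2.43 ± 0.32, adjusted p = 9.95e-06). No TGFBRi rat reached the lowest vehicle rat for any of the 3 genes. Absence of overlap was itself a condition for naming genes by the size of their change. Over all genes tested, 9.58% did not overlap. ASNS, which makes asparagine, was at 64.5, 40.8 and 41.2 CPM against 4.32, 8.95 and 14.6 CPM (−2.53 ± 0.51, adjusted p = 0.000750), and SLC38A4 at 99.3, 283 and 118 CPM against 16.1, 24.2 and 49.6 CPM (−2.40 ± 0.44, adjusted p = 0.00650). GFPT2, at the entry of the hexosamine pathway (−2.45), and METRNL (−2.15), TNFAIP8L1 (−2.20), ARMC7 (−2.32) and AABR07054319.1 (−2.96) also fell. These 10 genes were called in all 9 fits without 1 rat and among cells with PDPN, RELN or MMRN1. For ARMC7 DESeq2 gave no adjusted p. In blood endothelial cells of the same rats HMOX1 was −2.92, SQSTM1 −2.51, NQO1 −2.24 and ASNS −2.08, and GFPT2 (−1.56), METRNL (−1.21), TNFAIP8L1 (−1.74), ARMC7 (−2.69) and AABR07054319.1 (−3.58) were also called lower there. SLC38A4 was −0.70 (adjusted p = 0.511) and did not pass.

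RT1-DA (−2.47) and RT1-BA (−1.94), MHC class II chains, were also called lower, but neither passed without the condition on PROX1 (−0.84 and −0.94, adjusted p = 0.606 and 0.545). A RT1-DA UMI was found in 6.58% of lymphatic cells, against 7.29% of epithelial cells and 99.2% of B cells. A single lymphatic cell held 34 of the RT1-DA UMIs, and the source of these reads was not tested. After removal of cells with UMIs of other cell types too few UMIs were left to test them.

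**Figure D4:**
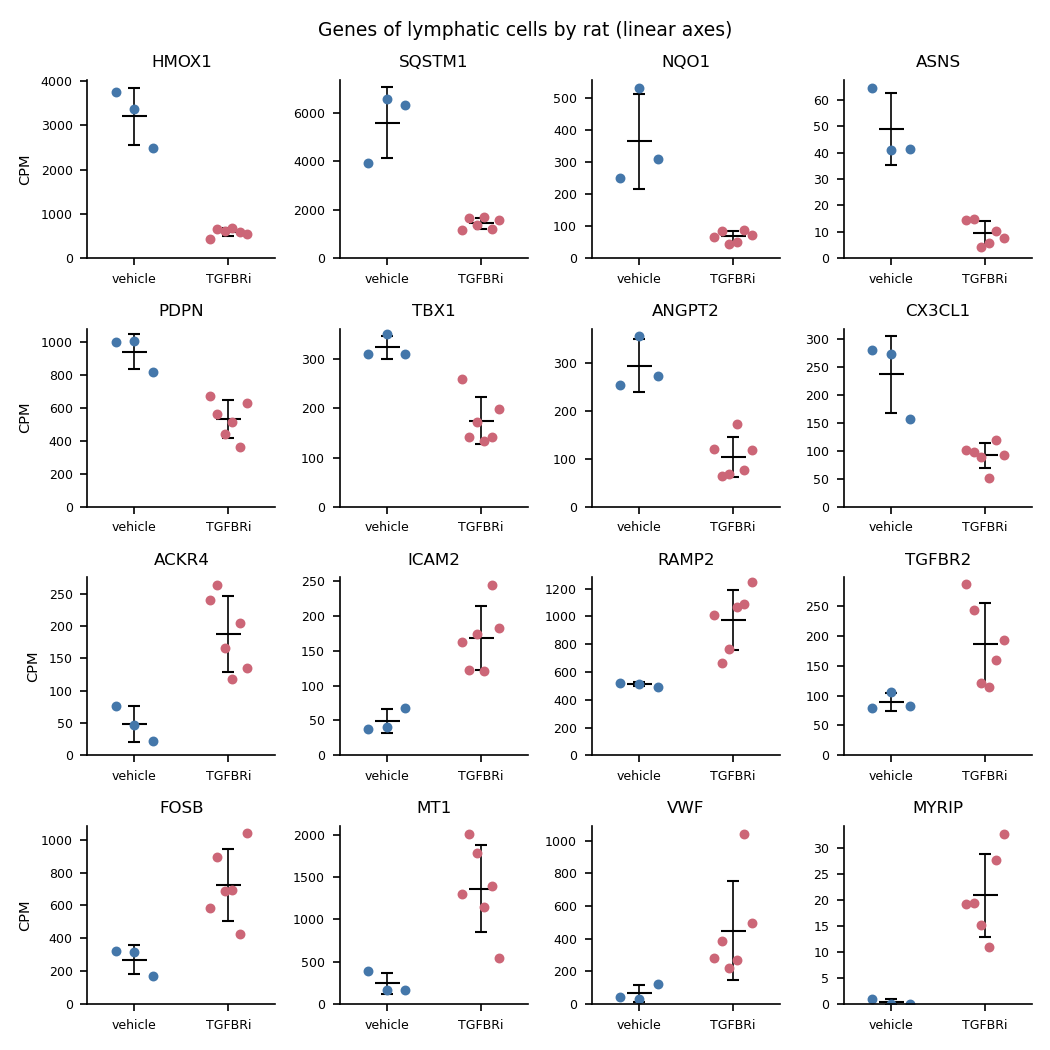
Levels (CPM, linear axes from 0) of 16 genes in lymphatic cells of each vehicle (blue, 3 rats) and TGFBRi (red, 6 rats) animal, with the mean and SD in black. HMOX1, SQSTM1, NQO1 and PDPN did not overlap between the groups, nor did 9.58% of all genes tested. VWF reached 1039 CPM in TGFBRi rat 11.

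Of the 20 lymphatic genes outside the rule, 3 passed, where 6.23% of all genes did. PDPN was at 996, 1005 and 816 CPM in vehicle rats 1, 2 and 4 and at 362, 537 and 672 CPM (lowest, median and highest) in TGFBRi. All TGFBRi rats lay below all vehicle rats, and the difference was −0.83 ± 0.21 (adjusted p = 0.0145). TBX1, a transcription factor needed for lymphatic growth, was at 311, 351 and 310 CPM against 134, 157 and 259 CPM (−0.91 ± 0.23, adjusted p = 0.0148). Both were called in all 9 fits without 1 rat, and TBX1 also among cells with PDPN, RELN or MMRN1, a choice of cells that uses PDPN itself and so does not bear on its call. Beside these falls, cells with VWF, which held PDPN and TBX1 less often, were 8.11% to 18.6% of lymphatic cells in vehicle and 24.6% to 52.5% in TGFBRi. The summed blood endothelial markers, VWF among them, were also higher in TGFBRi. The part of this in the falls of PDPN and TBX1 was not tested. TBX1 was called lower in blood endothelium too (−2.14, adjusted p = 0.0106), from a mean of 7.55 to 1.85 CPM, whereas PDPN did not pass there (−1.27, adjusted p = 0.219). With the label number as a replicate block TBX1 did not pass in lymphatic cells (adjusted p = 0.140). ITGA9, the valve integrin, was at 48.1, 32.7 and 21.97 CPM against 62.4, 68.2 and 101.7 CPM (1.04 ± 0.35, adjusted p = 0.0386), but did not pass without vehicle rat 2 (adjusted p = 0.128), vehicle rat 4 (0.110) or TGFBRi rat 14 (0.107), nor without other-type cells (0.158). ITGA9 was called higher in blood endothelium too (0.73, adjusted p = 0.0504). Other lymphatic genes did not pass in lymphatic cells. PROX1, a gene of the rule, was at 316, 327 and 368 CPM against a TGFBRi median of 420, given as description. MMRN1 differed by 0.23 (adjusted p = 0.828), RELN by −0.03 (0.967) and CCL21 by −0.23 (0.899). PTX3 did not overlap between groups, at 252, 376 and 555 CPM against 37.9 to 210 CPM, and did not pass by edgeR (−1.74 ± 0.42, adjusted p = 0.115). It passed in DESeq2 (adjusted p = 0.00149) and in edgeR without other-type cells (0.0546), among cells with PDPN, RELN or MMRN1 (0.0920) and without cells holding MARCO (0.0803). Over all genes tested, 9.58% did not overlap between groups.

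Of 35 leukocyte traffic genes 6 were higher and 1 lower, beside 3.03% and 3.21% of all genes, with a median of 0.23 over the list against 0.03 over all genes. ACKR4 was at 76.8, 46.3 and 21.97 CPM in vehicle and 118, 185 and 263 CPM in TGFBRi (1.82 ± 0.37, adjusted p = 0.0122). The share of lymphatic cells with an ACKR4 UMI was 19.6%, 16.2% and 11.6% in vehicle and 30.5% to 52.5% in TGFBRi, against 0.382% of B cells. ACKR4 passed among cells with PDPN, RELN or MMRN1 (adjusted p = 0.0380) but not without cells that held UMIs of other cell types (0.66, adjusted p = 0.704). ICAM2, an integrin ligand of resting endothelium, was at 37.9, 40.8 and 68.7 CPM against 121, 169 and 245 CPM (1.83 ± 0.32, adjusted p = 0.000822), and SPNS2, the exporter of sphingosine-1-phosphate, at 87.0, 68.1 and 96.1 CPM against 140.1, 171 and 219 CPM (1.05 ± 0.24, adjusted p = 0.00840). Both kept their call under all 9 fits without 1 rat and without other-type cells. SPHK1, which makes that lipid, was 1.17 higher (adjusted p = 0.0363) but did not pass without other-type cells, at an unreduced difference of 1.20 (adjusted p = 0.105). The membrane-bound chemokine CX3CL1 fell by 1.38 on the log2 scale, from 281, 272 and 157 CPM to 51.5, 94.8 and 120 CPM (adjusted p = 0.00231). In blood endothelium of the same rats ICAM2, ACKR4, SPNS2, SPHK1, JAM2 and LGALS9 were also called higher and CX3CL1 lower. There 12 of the 35 genes were higher and 9 lower, beside 14.1% and 17.7% of all genes. ICAM2, JAM2 and LGALS9 were lower in lymphatic than in blood endothelial cells. The summed blood endothelial markers in lymphatic cells were higher in TGFBRi, and their part in these changes was not tested.

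In the VEGFC list, RAMP2, the adrenomedullin co-receptor, was at 522, 515 and 494 CPM against 668, 1042 and 1245 CPM (0.94 ± 0.20, adjusted p = 0.00923). ANGPT2, the angiopoietin stored by lymphatic endothelium, was at 253, 357 and 272 CPM against 63.4, 98.2 and 173 CPM (−1.48 ± 0.31, adjusted p = 0.00451). The ANGPT2 groups did not overlap, and all 9 fits without 1 rat called it, but it did not pass among cells with PDPN, RELN or MMRN1 (−1.40, adjusted p = 0.161) or without other-type cells (−0.61, adjusted p = 0.364). In blood endothelium ANGPT2 was −0.13 (adjusted p = 0.724), whereas RAMP2 (1.21, adjusted p = 0.000127) and PTPRB (0.90, adjusted p = 0.000805) were higher there too. VEGFB (−0.87) fell and the receptor phosphatase PTPRB (1.06) rose, in 5 and 8 of the 9 fits without 1 rat, so that 4 of the 20 genes tested passed, where 6.23% of all genes did, and NRP2 and KDR did not. PTPRB did not pass among cells with PDPN, RELN or MMRN1 (0.66, adjusted p = 0.176).

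Of 20 blood endothelial genes tested, VWF, EMCN and INSR were higher in TGFBRi and CLDN5 lower, 4 genes where 6.23% of all genes passed. VWF was at 40.9, 27.2 and 124 CPM in vehicle and 222, 334 and 1039 CPM in TGFBRi, a difference of 2.88 ± 0.65 just past the threshold (adjusted p = 0.0983), which passed only without vehicle rat 4 (adjusted p = 0.0848) or TGFBRi rat 11 (0.0529) among the 9 fits without 1 rat, and not among cells with PDPN, RELN or MMRN1 (3.24, adjusted p = 0.166). It passed without other-type cells (4.32, adjusted p = 0.00914) and not at a threshold of 3 lymphatic UMIs per cell (3.45, adjusted p = 0.278). MYRIP, which tethers secretory granules to actin, had 57 UMIs in TGFBRi and 1 in vehicle, a ratio of 37.5 at equal depth (exact 95% counting interval 6.47 to 1507). The junction genes JAM2 (2.13) and CLEC14A (1.76), which like MYRIP are not in that list, together with EMCN (0.92) and INSR (1.42) were higher too, and passed in 4, 8, 8 and 7 of the 9 fits without 1 rat. CLEC14A and INSR did not pass among cells with PDPN, RELN or MMRN1 (1.13 and 0.96, adjusted p = 0.215 and 0.318), and CLEC14A was 0.51 without the condition on PROX1 (adjusted p = 0.254). Beside these values, the summed level of 21 blood endothelial markers in the lymphatic cells was 2223 to 3919 CPM in vehicle and 4012 to 8817 CPM in TGFBRi, without overlap, and only GJA5 of the list was at 0. The part of this in the increases of VWF, MYRIP, JAM2, CLEC14A, EMCN and INSR was not tested. VWF, EMCN and INSR are themselves in the sum, which for them partly restates the increase.

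Increases that lay outside the blood endothelial list included the metal-binding MT1, at 387, 169 and 170 CPM against 549, 1351 and 2013 CPM (2.46 ± 0.36, adjusted p = 0.0375), which did not pass without vehicle rat 2 (adjusted p = 0.150) or vehicle rat 4 (0.119), nor without cells that held UMIs of other cell types (0.103), where the difference was no smaller at 3.03. RT1-T24-4, an MHC class I gene, was at 77.8, 27.2 and 46.7 CPM against 147, 282 and 442 CPM (2.42 ± 0.37, adjusted p = 0.00982). MHC genes of this family are closely related, and reads may be split among them. APOL9A (2.55), AABR07044631.2 (2.46), CCM2L (2.33), CPED1 (2.27) and PALD1 (2.01) were also higher in TGFBRi and passed among cells with PDPN, RELN or MMRN1, whereas TMEM252 (2.67), CBS (2.22) and RASA4 (2.14) did not (adjusted p = 0.431, 0.145 and 0.226). CCM2L, CPED1 and PALD1 did not pass without cells that held UMIs of other cell types (2.08, 1.93 and 1.29, adjusted p = 0.126, 0.115 and 0.265). Without vehicle rat 1, AABR07044631.2 (adjusted p = 0.127), CCM2L (0.144), CPED1 (0.168) and RASA4 (0.193) did not pass. Nor did CCM2L without vehicle rat 2 (0.103), or RASA4 without vehicle rat 2 (0.128) or 4 (0.115). Beside these increases, the summed blood endothelial markers in lymphatic cells were 2223 to 3919 CPM in vehicle and 4012 to 8817 CPM in TGFBRi. The part of this in the increases was not tested, and their change in blood endothelium is not given here. Of 27 immediate early and heat shock genes, which respond to tissue dissociation, 7 were higher and 0 lower, beside 3.03% and 3.21% of all genes, among them FOSB (1.41), FOS (0.88) and EGR1 (0.79), which passed in 9, 5 and 8 of the 9 fits without 1 rat, and their summed level was 16003 to 18069 CPM in vehicle and 17016 to 26845 CPM in TGFBRi. FOSB, FOS and EGR1 were also called higher in blood endothelium.

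Among genes of the inhibited pathway, TGFBR2 and TGFBR3 rose. The kinase TGFBR1, a target of the inhibitor, was at 29.7, 19.1 and 19.2 CPM in vehicle and 12.9 to 34.1 CPM in TGFBRi (−0.20, adjusted p = 0.824). Its partner TGFBR2 was at 79.8, 106.2 and 82.4 CPM against 114, 176 and 288 CPM (1.03 ± 0.33, adjusted p = 0.0435), and the co-receptor TGFBR3 at 150.5, 78.97 and 101.6 CPM against 132, 205 and 261 CPM (0.86 ± 0.28, adjusted p = 0.0468). They were 2 of 22 receptors, ligands and SMADs tested, where 6.23% of all genes passed, and the other 20 did not pass. TGFBR2 did not pass without vehicle rat 1 (adjusted p = 0.157), 2 (0.103) or 4 (0.130), and TGFBR3 not without vehicle rat 2 (0.202), vehicle rat 4 (0.111) or TGFBRi rat 14 (0.119), nor without other-type cells (0.185). In that last fit TGFBR2 kept its call (1.46, adjusted p = 0.00391). ENG (0.88, adjusted p = 0.0186) and ACVRL1 (2.33, adjusted p = 0.0602) passed in that fit though not in the main one. ENG also passed without cells holding MARCO (0.60, adjusted p = 0.0734). In blood endothelium, from the same rats, TGFBR2 was 0.82 and TGFBR3 1.36 higher.

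Of 26 TGFβ target and feedback genes, 3 passed, where 6.23% of all genes did. CCN1 (0.63, adjusted p = 0.0986) and BHLHE40 (0.71, adjusted p = 0.0983) were higher and CLDN5 (−0.66, adjusted p = 0.0841) lower, each passing in 2 of 9 fits without 1 rat, and CCN1 (1.15, adjusted p = 0.136) and BHLHE40 (0.96, adjusted p = 0.110) did not pass without other-type cells, although their differences were not smaller there. SMAD7, the feedback inhibitor, was at 6.14, 10.9 and 8.24 CPM against 4.80 to 28.1 CPM (1.11 ± 0.66, adjusted p = 0.256), and TGFBI differed by 0.35 (adjusted p = 0.5261). Without other-type cells SMAD7 did pass (4.05, adjusted p = 0.0809), as did TGIF1 (−0.88, adjusted p = 0.0227) and TAGLN (0.77, adjusted p = 0.0136). None of 12 BMP and ACVRL1 targets passed by edgeR (2 had an unadjusted p under 0.05, and DESeq2 called 1, BMP4), and the median of the 26 TGFβ targets was −0.01 against 0.03 over all genes. In simulated data of this design, 23.5% of genes changed by 1 on the log2 scale and 89.5% of genes changed by 2 were recovered, with 3 and 23 false calls. The changed genes had at least 50 UMIs. Recovery was thus not measured for listed genes below that level, such as LDLRAD4 with 15 UMIs.

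**Figure D5:**
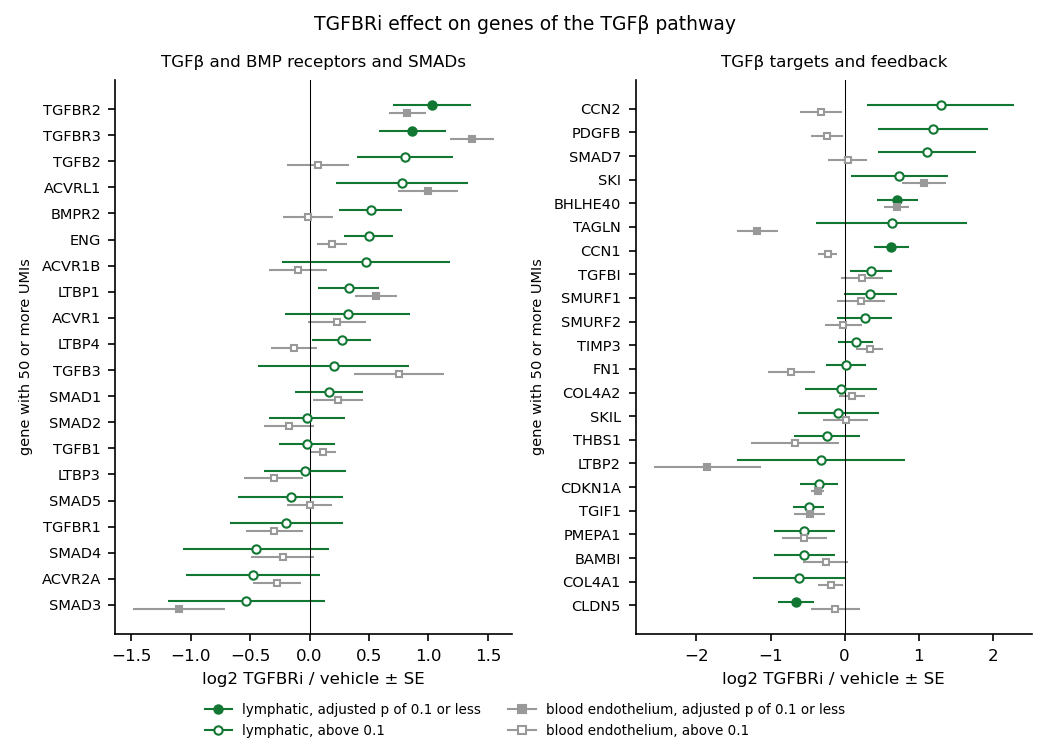
Log2 difference of TGFBRi from vehicle (x axis, ± SE) for TGFβ and BMP receptors, ligands and SMADs (left) and TGFβ targets (right) with at least 50 UMIs, 1 target left out, in lymphatic cells (green circles) and blood endothelial cells (grey squares) of the same rats. Filled symbols have an adjusted p of 0.1 or less, open symbols do not, and in lymphatic cells TGFBR2, TGFBR3, BHLHE40, CCN1 and CLDN5 are filled.

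Proliferation and mesenchymal genes gave no call in lymphatic cells. None of 23 S phase, 20 G2/M and 16 mesenchymal genes passed by edgeR or DESeq2, with 2, 1 and 0 at an unadjusted p under 0.05 (17.1% of all genes) and list medians of 0.40, −0.13 and 0.13. Of 12 Notch genes DLL4 alone passed by edgeR (1.30, adjusted p = 0.0405), and of 16 lipid-handling genes CAVIN2 was higher (1.41) and DGAT1 lower (−1.32), where 6.23% of all genes passed. DESeq2 also called HES1 of the Notch list and FABP4 and PLIN2 of the lipid list. Of 14 shear stress and quiescence genes, KLF4 (0.68) and NOS3 (1.14) were higher and HMOX1 lower. DLL4 and NOS3 each passed in 6, KLF4 in 7, CAVIN2 in 8 and DGAT1 in 5 of the 9 fits without 1 rat. Without other-type cells, DGAT1 (−0.83, adjusted p = 0.479) and NOS3 (0.84, adjusted p = 0.299) did not pass. Among cells with PDPN, RELN or MMRN1, CAVIN2 (1.22, adjusted p = 0.134), NOS3 (0.93, adjusted p = 0.165) and DGAT1 (−0.86, adjusted p = 0.292) did not pass, and without the condition on PROX1 NOS3 was 0.21 (adjusted p = 0.650). CSN2, the milk protein β-casein, was called higher with 65 UMIs against 0 in vehicle, at least 14.3-fold over the group floor of 3 UMIs, but it was found in 5.48% of lymphatic and 5.50% of blood endothelial cells, against 21.1% of epithelial cells, and 1 of the lymphatic cells held 24 of the 65 UMIs. The source of these UMIs was not tested. Markers of other cells were also found. Macrophage markers summed to 26.3 to 78.98 CPM in vehicle and 20.3 to 782 CPM in TGFBRi, the highest in rat 11. Fibroblast markers reached 4502 CPM in vehicle rat 4 and 3378 CPM in TGFBRi rat 4. Epithelial markers were at 71.8 to 2239 and 228 to 1647 CPM and mural markers at 449 to 618 and 162 to 1130 CPM. The fat cell markers ADIPOQ, PLIN1, LEP and RETN were at 0. No macrophage, fibroblast or mural gene passed in the comparison of TGFBRi with vehicle by edgeR or DESeq2, with 0, 0 and 2 at an unadjusted p under 0.05, and their part in the other results was not tested.

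The effect of TGFBRi was finally compared between lymphatic and blood endothelial cells in 1 model. Of 14093 genes, 59 (0.419%) differed in effect, 50 (0.355%) with a higher and 9 (0.0639%) with a lower effect in lymphatic cells. Only 8 of the 50 and 1 of the 9 were called in every fit that left out 1 rat, and the count ran from 30 to 210 in those fits. Under DESeq2 scaling factors in the same test the split was 42 and 17, and the median over all genes moved from 0.10 to 0.02. BGN, the matrix proteoglycan biglycan, was at 68.6, 95.3 and 195 CPM in lymphatic cells of vehicle rats and 119 to 261 CPM in TGFBRi (0.87, adjusted p = 0.170), and at a mean of 301 and 203 CPM in blood endothelium (−0.56). The difference of the effects was 1.46 ± 0.23 (adjusted p = 0.000109). TALDO1, of the pentose phosphate pathway, was −0.12 in lymphatic and −1.52 in blood endothelial cells, a difference of 1.39 ± 0.23 (adjusted p = 0.000109). PDLIM3, a cytoskeletal adaptor, was at 23.5, 19.1 and 19.2 CPM in vehicle and 48.8 to 100.8 CPM in TGFBRi in lymphatic cells (1.503, adjusted p = 0.00919), against −0.58 in blood endothelium, a difference of 2.17 ± 0.51 (adjusted p = 0.00549). Lower in effect were the interferon-inducible genes GBP7 (−1.82 ± 0.46, adjusted p = 0.00549), OASL (−2.64) and IRF1 (−0.95), with FAM89A (−3.28). GBP7 was called lower in lymphatic cells (−1.59), but not without vehicle rat 2 (adjusted p = 0.166). OASL was called higher in blood endothelium and not called in lymphatic cells, and IRF1 was called in neither. For OASL, IRF1 and FAM89A the difference did not pass in DESeq2 (adjusted p = 0.164, 0.114 and 0.104). Among members of the gene lists, the effect on ANGPT2 was lower in lymphatic cells by a difference of −1.45 ± 0.37 (adjusted p = 0.0626), and the effects on NOS3 (1.48 ± 0.36, adjusted p = 0.00549), INSR (1.94 ± 0.51, adjusted p = 0.0193) and FOXC2 (2.04 ± 0.56, adjusted p = 0.0554) were higher. So were those on the TGFβ target CCN1 (0.84 ± 0.23, adjusted p = 0.0472), the immediate early genes ATF3 (0.72, adjusted p = 0.0501) and IER3 (0.67, adjusted p = 0.0313) and the Notch ligand DLL1 (1.53, adjusted p = 0.0194), although CCN1 and ATF3 did not pass in DESeq2 (adjusted p = 0.164 and 0.239). A higher effect need not be a rise in lymphatic cells. FOXC2 did not pass there (0.55, adjusted p = 0.492), and fell in blood endothelium from a mean of 4.39 to 1.57 CPM (−1.66). IER3 and DLL1 were called lower in blood endothelium and not called in lymphatic cells. NOS3 was called lower in blood endothelium and higher in lymphatic cells. The difference for HMOX1 was 0.16 ± 0.38 and for SQSTM1 0.48 ± 0.38, and neither passed, nor did those for PDPN (0.56, adjusted p = 0.967), ACKR4 (0.98, adjusted p = 0.516) and VWF (2.45, adjusted p = 0.404, though DESeq2 gave 0.00466). Recovery of a planted difference of 1 on the log2 scale was 10.5% in simulated data of this design, so most differences of that size could not be seen. The 200 planted genes had at least 50 UMIs. Beside them edgeR made 27 false calls, and 37 at a difference of 2, where 59.5% were recovered. These are larger shares of its calls than the threshold of 0.1 sets, so part of the 59 calls may be false.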

How the data were processed

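The authors deposited 1 table of raw UMI counts per rat, with genes in rows and cells in columns. Droplet 5′ libraries had been aligned to rn6 with Cell Ranger 7.0.0 and filtered in Seurat 4.1.1 for genes per cell and mitochondrial share. No doublet caller was run here, and removal of doublets is not stated in the sources used here. Symbols were matched ignoring case. The members and gene lists were chosen with earlier results of these data known. Sorted-cell tables (CD31−CD45− gate, 30 tables) were searched for cells that met the rule and entered no comparison. Bulk data were not used here.

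UMI counts were summed per rat over lymphatic cells and over blood endothelial cells and tested in R 4.3.3 with the edgeR 4.0.16 quasi-likelihood test (robust, TMM scaling, genes with at least 10 UMIs, Benjamini-Hochberg adjusted p of 0.1 or less). Lymphatic and blood endothelial cells were compared with the rat as a block. CPM values carry the TMM scaling of their own fit, so a level can differ slightly between comparisons. Standard errors of log2 differences come from DESeq2 1.42.0. Shares were compared by exact permutation over rats. Intervals and floors (3 UMIs over a group) cover counting error only. The 9 rats are separate animals.

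Named genes were the rule genes, the lymphatic and TGFβ lists, up to 12 called genes per direction with the largest change, at least 50 UMIs and no overlap of groups, the 15 per direction with the largest difference from blood endothelium and at least 200 UMIs, the 5 per direction with the smallest p for a difference of effect, and list members past the threshold. Further list members named against blood endothelium (ACKR2, CXCL12 and the like) were chosen after their values were seen. Alternatives were DESeq2, other scaling, UMI filters, definitions of the cells, the number in the rat's label as a block, and leaving out each rat. Scripts were tested on simulated data with 200 changed genes. 1 gene of the TGFβ target list is not reported here by name.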

Additional observations from a re-analysis of the deposited data

Results flagged for a closer look

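In 26 TGFBRi groups of 6 rats checked for a rat that stood apart, 3 did so by Dixon's ratio, where chance gives about 1 in 20. VWF was at 1039 CPM in lymphatic cells of TGFBRi rat 11, AABR07044631.2 was at 58.4 CPM in the same rat, and METRNL was at 43.2 CPM in TGFBRi rat 1. Rat 11 also had the largest share of lymphatic cells without PDPN, RELN or MMRN1 (42.4%) and the highest sums of blood endothelial (8817 CPM) and macrophage (782 CPM) markers, and the part of these in its VWF level was not tested. The blood endothelial sum includes VWF itself.

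The effect of TGFBRi differed between lymphatic and blood endothelial cells, by the test of the difference itself, for BGN (1.46 on the log2 scale), TALDO1 (1.39), PDLIM3 (2.17), EGFL7 (1.16), MMP3 (6.05), GBP7 (−1.82), FAM89A (−3.28), IRF1 (−0.95), OASL (−2.64) and MMP12 (−7.79). EGFL7 is a gene of the rule that chose the cells, so its value is a description. MMP3, a matrix protease, was at 77.7 CPM in TGFBRi rat 4 and at 0 in the other TGFBRi rats, and MMP12 was at 49.02 CPM in vehicle rat 2 and at 3.07 and 0 CPM in vehicle rats 1 and 4, so each rests on 1 rat, and DESeq2 gave no adjusted p for either.

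Outside the whole-gland tables, 16 of 56528 cells in the 30 sorted tables met the lymphatic rule although the sort had gated endothelial cells out. They lay in 7 tables, and 8 of them were among the 3677 basal cells of SD TGFBRi rat 14.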

How the results depend on the processing

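For TGFBRi against vehicle, 663 genes were called in lymphatic cells, 1407 without the condition on PROX1, 572 in DESeq2, and 251 to 643 with 1 rat left out. The count was 251 without vehicle rat 2 and 421 without TGFBRi rat 14. With the label number as a replicate block it was 320. Same-numbered rats did not deviate together (r = −0.146, −0.13 and 0.0017 over 3153 genes). These sums of 22 to 92 cells per rat are noisy, so the check cannot decide whether the numbers pair the animals. The difference of effects gave 59 genes, 38 in DESeq2, 256 without cells holding UMIs of other cell types, and 30 (without vehicle rat 2) to 210 (without vehicle rat 4) with 1 rat left out. The cause of these shifts was not tested. Lymphatic against blood endothelium gave 4247, and 3753 to 4035 with 1 rat left out. Without the rat as a block the count was 3487. The difference in the share of all cells (0.0347 points) turned to −0.280 without the condition on PROX1 and −0.0115 with cells thinned to 1000 UMIs, where a rat kept as few as 3 lymphatic cells. With 1 rat left out it ran from −0.0217 (without vehicle rat 2) to 0.112, and the difference in the endothelial share (4.24 points) from 3.18 to 6.03. The latter was 2.77 points without the condition on PROX1 and 1.56 with thinned cells. Of the values for part of the named genes under the alternatives, 569 kept their call, 94 lost it, 0 reversed and 7 had no adjusted p in DESeq2. Over all the named genes more calls than these were lost. The cells with PDPN, RELN or MMRN1, those without MARCO (782 calls) and those without the GLYCAM1-rich cell (665 calls) were alternatives chosen after seeing the data.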
